A study of Mus musculus with 11 samples.

Results

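Steroid hormone receptors and glucocorticoid target genes were followed in bulk RNA-seq of mouse pancreatic islets. They comprised 9 genes taken by symbol from the 55536 genes of the count tables. Esr1, Esr2, Gper1 and Pgr encode estrogen and progesterone receptors, Nr3c1 and Nr3c2 encode the glucocorticoid and mineralocorticoid receptors, and Fkbp5, Tsc22d3 and Greb1 are genes that steroid receptors are known to regulate. The 11 libraries came from C57BL/6J females. Libraries labelled multipara were from mice that had gone through 3 pregnancies, entered the study at 9 weeks of age and gave islets 3 weeks after the final birth, and those labelled virgin were from mice of matched age. S-961, a peptide that blocks the insulin receptor, had been injected into the mice of 3 virgin and 4 multipara libraries. The 2 virgin and 2 multipara libraries without S-961 are labelled as untreated, and whether those mice received a vehicle is not given in the sources used here. The comparisons ask how islets of the parity groups differ once the demand for insulin is raised, and how each group changes with that demand. For the injected mice, the paper's number of mice in each parity group equals the number of libraries, which points to separate animals. The number of mice behind an untreated library is not given in the sources used here. All p-values measure the spread between these libraries, which may be technical for the untreated ones.

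Steroid receptors of the nuclear family are held by chaperones until they bind their hormone, then bind DNA as pairs and recruit coregulators to their target genes. The glucocorticoid receptor raises Fkbp5, whose product lowers the affinity of the receptor for its hormone, and Tsc22d3, whose product is the anti-inflammatory protein GILZ. In islets, glucocorticoids are known to reduce insulin secretion, whereas estrogen receptor signalling is known to protect beta cells.

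The libraries held between 22028507 and 32234146 estimated counts, with a median of 29866486. Values are given as counts per 1000000 counts of a library after TMM scaling (CPM), where 3 counts were worth between 0.0772 and 0.189 CPM. All 10 beta cell markers were detected in every group. Their summed level was 123607 to 234635 CPM with S-961 and 456879 to 614747 CPM without it. Most of that sum was Ins1 and Ins2, with a mean of 98633 CPM for Ins2 with S-961 and 340453 CPM without it. The list did not move as 1. By edgeR, 4 of the 10 markers were higher and 4 lower with S-961 over both parity groups (background 25.7% higher and 25.9% lower). The library labelled multipara S-961 replicate 4 stood apart from its group. Its root mean square log2 difference over genes was 0.600 to the nearest virgin S-961 library and between 0.836 and 0.983 to the other 3 multipara S-961 libraries. The summed level of 8 proliferation genes was 14.98 CPM in that library, 142 to 319 CPM in multipara S-961 replicates 1 to 3 and 12.1 to 32.8 CPM with virgin S-961. The 2 untreated multipara libraries had a root mean square log2 difference of 1.07 from each other. Each lay closer to an untreated virgin library, replicate 1 at 0.874 and replicate 2 at 0.602. Untreated multipara replicate 1 had 894 CPM of 7 macrophage markers, against 174 to 207 CPM in the other untreated libraries. The parity direction of every result below, above all that of Esr1, is that of the labels. Whether the labels of any of these libraries were exchanged was not tested, and an exchange between parity groups would change or turn the parity differences.

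Promoter stretches of Fkbp5 and Tsc22d3 are shown because both genes fell with S-961. Those of the metallothionein gene Mt1, the glucocorticoid-induced gene Fam107a and the kinase gene Sgk1 are shown because they were the 3 that held the palindrome described next, of 19 further glucocorticoid targets with a listed promoter. All sequences are from RefSeq on GRCm38.p6 and lie upstream of the annotated start site. Capitals in Mt1, Fam107a and Sgk1 mark the palindrome of the glucocorticoid response element, searched as GNACA and TGTNC with any 3 bases between, and capitals in Tsc22d3 mark its single arm AGAACA on the opposite strand. The stretch of Fkbp5 holds neither. The windows are chr17:28486150-28486349 on the minus strand for Fkbp5, chrX:140600655-140600754 on the minus strand for Tsc22d3, chr8:94178951-94179050 on the plus strand for Mt1, chr14:8309842-8309941 on the minus strand for Fam107a and chr10:21993658-21993757 on the plus strand for Sgk1.
Fkbp5: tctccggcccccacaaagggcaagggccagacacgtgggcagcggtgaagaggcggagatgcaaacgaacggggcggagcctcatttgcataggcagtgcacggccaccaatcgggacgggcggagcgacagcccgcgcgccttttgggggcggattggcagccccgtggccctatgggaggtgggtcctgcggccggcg
Tsc22d3: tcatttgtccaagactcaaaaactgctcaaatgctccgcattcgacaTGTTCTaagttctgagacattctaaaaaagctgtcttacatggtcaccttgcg
Mt1: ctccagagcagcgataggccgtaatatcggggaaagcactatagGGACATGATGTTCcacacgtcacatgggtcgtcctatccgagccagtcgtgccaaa
Fam107a: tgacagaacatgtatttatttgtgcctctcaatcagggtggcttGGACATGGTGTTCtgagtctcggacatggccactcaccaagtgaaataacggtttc
Sgk1: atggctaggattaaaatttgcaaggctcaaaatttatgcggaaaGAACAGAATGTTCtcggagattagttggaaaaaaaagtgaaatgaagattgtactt

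RefSeq promoters of 300 bases, 250 before the start site and 50 after it, were listed for 8 of the 9 genes, the exception being Nr3c1. Both strands were searched. None of their 12 promoters held this palindrome or that of the estrogen response element, GGTCA and TGACC with any 3 bases between, which 0.475% and 0.07% of all 32851 promoters held. AGAACA, a search added after the values were seen, was found in the promoters of 1 of the 8 genes, Tsc22d3, and in 19% of all promoters. The palindrome began at position -94 from the start site in Mt1, -188 in Sgk1 and -118 in Fam107a. A match describes these letters only, and genes holding the same palindrome moved in opposite directions with S-961.

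Per kilobase of exon, the glucocorticoid receptor was the most abundant of the 6 receptors. Its mean level over the 11 libraries was 9.63 ± 2.61 CPM per kb (SD, n = 11), against 1.60 ± 0.361 CPM per kb for the mineralocorticoid receptor Nr3c2. Gper1, a membrane estrogen receptor, followed at 0.254 ± 0.127 CPM per kb and Esr1, estrogen receptor alpha, at 0.139 ± 0.115 CPM per kb. Pgr, the progesterone receptor, had 0.0192 ± 0.00733 CPM per kb and Esr2, estrogen receptor beta, 0.0019 ± 0.00428 CPM per kb. The ranges over libraries of Gper1 and Esr1 overlapped, as did those of Esr1 and Pgr and of Pgr and Esr2, so that the order of these neighbours is not fixed. The targets Fkbp5 and Tsc22d3 had 11.6 ± 8.54 and 6.91 ± 4.35 CPM per kb. The range of Fkbp5 overlapped those of Nr3c1 and Tsc22d3, while the range of Tsc22d3 lay above that of Nr3c2. Greb1, named for its growth regulation by estrogen in breast cancer, had 0.0196 ± 0.0123 CPM per kb.

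Of the 9 genes, 7 passed the filter on low counts in the fits with S-961 libraries and 6 in the fit of the untreated libraries, which left out Greb1. Esr2 and Pgr never passed it. Esr2 (chromosome 12, 76120419 to 76177259, minus strand) had 1 count in virgin S-961 replicate 2 and in virgin untreated replicate 2, and 0 counts in the other 9 libraries. Pgr (chromosome 9, 8899833 to 8968611, plus strand) had between 2 and 8 counts per library. Differences in these genes were not detectable at this depth. Greb1 (chromosome 12, 16670615 to 16800886, minus strand) had 11, 3 and 2 counts in virgin S-961, 12, 4, 13 and 4 in multipara S-961, 5 and 3 in virgin untreated and 1 and 5 in multipara untreated. Its groups overlapped in every comparison, and its S-961 difference over both parity groups was 0.24 ± 0.68 (log2, SE) with an adjusted p of 0.785 (Benjamini-Hochberg adjustment over all genes, here and throughout, of the quasi-likelihood test in edgeR).

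**Figure D1:**
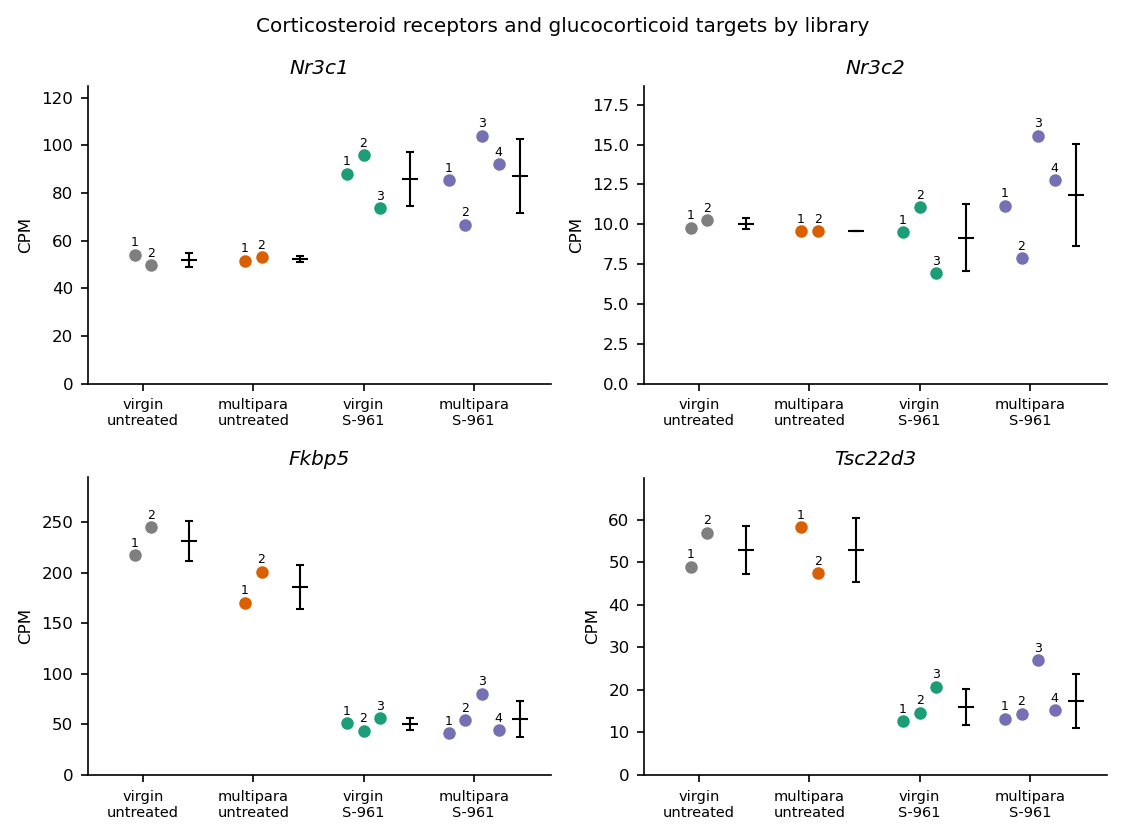
CPM of the corticosteroid receptors Nr3c1 and Nr3c2 and of the glucocorticoid targets Fkbp5 and Tsc22d3 on linear axes from 0. Each numbered point is a library with its replicate number, and the bar beside each group gives the mean and SD (n = 2, 2, 3 and 4). Fkbp5 and Tsc22d3 were lower in all 7 S-961 libraries than in all 4 untreated ones, and Nr3c1 was higher.

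The glucocorticoid target Fkbp5 fell with S-961 in both parity groups. Fkbp5 (chromosome 17, 28399094 to 28517527, minus strand) had 51.3, 43.8 and 56.1 CPM in virgin S-961 and 41.1, 54.3, 80.4 and 44.3 CPM in multipara S-961. Without S-961 it had 217 and 245 CPM in virgin and 170 and 201 CPM in multipara libraries. All S-961 libraries lay below all untreated ones, with a wide gap. Over both parity groups the level was 3.91-fold lower (log2 -1.97 ± 0.18 SE, adjusted p = 6.09e-06, edgeR). The fall was log2 -2.20 ± 0.25 in virgin (adjusted p = 0.000235, edgeR) and -1.75 ± 0.23 in multipara (adjusted p = 0.000377, edgeR). The fold changes of the 2 parity groups differed by 0.44 ± 0.35 on the log2 scale (adjusted p = 0.863, edgeR interaction). Leaving out any 1 library kept the fall past the threshold in all 3 comparisons.

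Tsc22d3, which encodes GILZ, fell as well. Tsc22d3 (chromosome X, 140539528 to 140600659, minus strand) had 12.7, 14.7 and 20.8 CPM in virgin S-961 and 13.3, 14.4, 27.0 and 15.2 CPM in multipara S-961. Its untreated levels were 49.0 and 57.0 CPM in virgin and 58.3 and 47.5 CPM in multipara libraries. The groups with and without S-961 did not overlap. The level was 3.15-fold lower over both parity groups (log2 -1.66 ± 0.19, adjusted p = 3.35e-05, edgeR), with -1.72 ± 0.29 in virgin (adjusted p = 0.00149, edgeR) and -1.60 ± 0.27 in multipara (adjusted p = 0.00145, edgeR). As for Fkbp5, no single library decided these calls.

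Nr3c1, the receptor that acts on both targets, moved the other way. Nr3c1 (chromosome 18, 39410545 to 39519421, minus strand) had 88.1, 95.8 and 73.6 CPM in virgin S-961 and 85.4, 66.7, 104 and 92.0 CPM in multipara S-961. It had 54.0 and 49.6 CPM in virgin untreated and 51.5 and 53.2 CPM in multipara untreated libraries. Again all 7 S-961 libraries lay on one side, here above the 4 untreated ones. The rise was 1.66-fold over both parity groups (log2 0.73 ± 0.12, adjusted p = 0.000355, edgeR), and log2 0.73 ± 0.18 in virgin (adjusted p = 0.0101, edgeR) and 0.73 ± 0.17 in multipara (adjusted p = 0.00814, edgeR). Within 1 parity group the call depended on the untreated libraries. In virgin the adjusted p by edgeR was 0.0527 without virgin untreated replicate 1 and 0.0938 without replicate 2 (range over alternatives 0.000425 to 0.0938), and in multipara it was 0.0649 without multipara untreated replicate 1 (0.000363 to 0.0649).

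Nr3c2, the mineralocorticoid receptor, showed no such shift. Nr3c2 (chromosome 8, 76899442 to 77245012, plus strand) had 9.49, 11.1 and 6.92 CPM in virgin S-961, 11.2, 7.85, 15.6 and 12.8 CPM in multipara S-961, 9.79 and 10.3 CPM in virgin untreated and 9.56 and 9.58 CPM in multipara untreated libraries. The S-961 libraries spread on both sides of the untreated ones. Its log2 difference with S-961 was 0.095 ± 0.19 over both parity groups (adjusted p = 0.701, edgeR).

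Over both parity groups, 4 of the 7 genes tested passed the threshold (1 higher, 3 lower), against 51.5% of all 17996 genes tested (25.7% higher and 25.9% lower). In virgin the count was 4 of 7 against 36.5% of all genes, and in multipara it was 3 of 7 against 37.6%. The groups did not overlap for 3 of the 7 genes over both parity groups, against 36.4% of all genes. So many genes differed between S-961 and untreated libraries that the share of these genes called over both parity groups was near the background. Marker levels of other cell types differed along with treatment. The summed level of 14 acinar markers, all detected, was 2171 to 13743 CPM with S-961 and 140 to 222 CPM without it, and that of 6 alpha cell markers was 14231 to 24649 CPM against 26358 to 57318 CPM. Their part in these results was not tested, and in bulk libraries fewer cells of a type and less RNA per cell cannot be told apart.

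**Figure D2:**
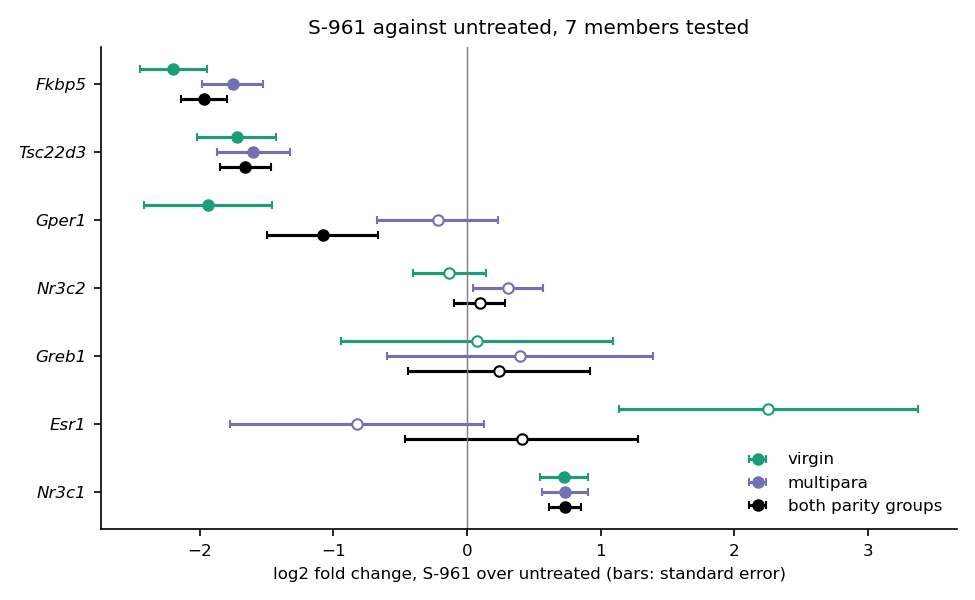
Log2 fold change of S-961 over untreated libraries for the 7 genes tested, with bars for the standard error, in virgin, in multipara and over both parity groups. Filled points passed an adjusted p of 0.05 by edgeR. Fkbp5 and Tsc22d3 lie below 0 and Nr3c1 above 0 in all 3 comparisons, while the Esr1 values in virgin (2.26) and multipara (-0.82) lie on opposite sides of 0.

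The sex steroid receptors split the libraries differently. Esr1, which encodes the main nuclear estrogen receptor of beta cells (chromosome 10, 4611593 to 5005614, plus strand), had 4.63, 3.08 and 2.20 CPM in virgin S-961. In multipara S-961 it had 0.271, 0.291 and 0.412 CPM in replicates 1 to 3 and 4.14 CPM in replicate 4. Untreated virgin libraries had 0.612 and 0.766 CPM and untreated multipara libraries 2.37 and 2.14 CPM. These levels rested on 10, 10 and 16 counts in multipara S-961 replicates 1 to 3, on 140 in replicate 4 and on 68 to 150 in virgin S-961. Replicate 4 lay inside the range of virgin S-961, and the other 3 multipara S-961 libraries lay below every other library of the series.

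With S-961, Esr1 differed between the parity groups by log2 -1.37 ± 0.90, which did not pass (adjusted p = 0.661, edgeR). Without multipara S-961 replicate 4 the difference was -3.30 ± 0.40 (adjusted p = 0.00604, edgeR), with 0.324 ± 0.0761 CPM (SD, n = 3) in multipara against 3.30 ± 1.23 CPM (SD, n = 3) in virgin libraries. In that fit 525 of all genes were called, against 0 in the main fit. Over all alternatives the adjusted p by edgeR or DESeq2 ran from 0.00604 to 0.887. Untreated, the direction was the opposite, with Esr1 higher in multipara by log2 1.71 ± 0.31 and no overlap. This did not pass either (adjusted p = 0.719, edgeR). Without multipara untreated replicate 2 the value was 1.79, but that fit assumes that the lone multipara library varies as the virgin ones do. The difference between the parity differences was -3.08 ± 1.45 on the log2 scale (adjusted p = 0.766, edgeR interaction), and -5.04 ± 0.57 without multipara S-961 replicate 4 (adjusted p = 0.0157, edgeR, range 0.0157 to 1). Of all genes, 45 were called in the interaction without that library, against 0 in the main fit.

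S-961 against untreated gave opposite values of Esr1 by parity label. In virgin the S-961 libraries lay above the untreated ones (log2 2.26 ± 1.12, adjusted p = 0.140, edgeR), and the difference passed in a fit of the virgin libraries alone (2.28 ± 0.40, adjusted p = 0.00231, edgeR, range over alternatives 0.00231 to 0.384). In multipara it was -0.82 ± 0.95 (adjusted p = 0.514, edgeR), and -2.78 ± 0.39 without replicate 4 of multipara S-961 (adjusted p = 0.00109, edgeR, range 0.00109 to 0.715). Over both parity groups the value was 0.41 ± 0.87 (adjusted p = 0.713, edgeR) and turned to -0.62 without that library, to -0.053 without virgin untreated replicate 1 and to -0.0072 without virgin untreated replicate 2. The proliferation genes ran opposite to Esr1 among S-961 libraries. Their sum was 319, 306 and 142 CPM in the 3 multipara libraries low in Esr1 and 12.1 to 32.8 CPM in the 4 libraries high in it. Among untreated libraries they stood at 106 and 10.02 CPM in multipara replicates 1 and 2, whose Esr1 levels were alike. Their part in the Esr1 result was not tested.

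**Figure D3:**
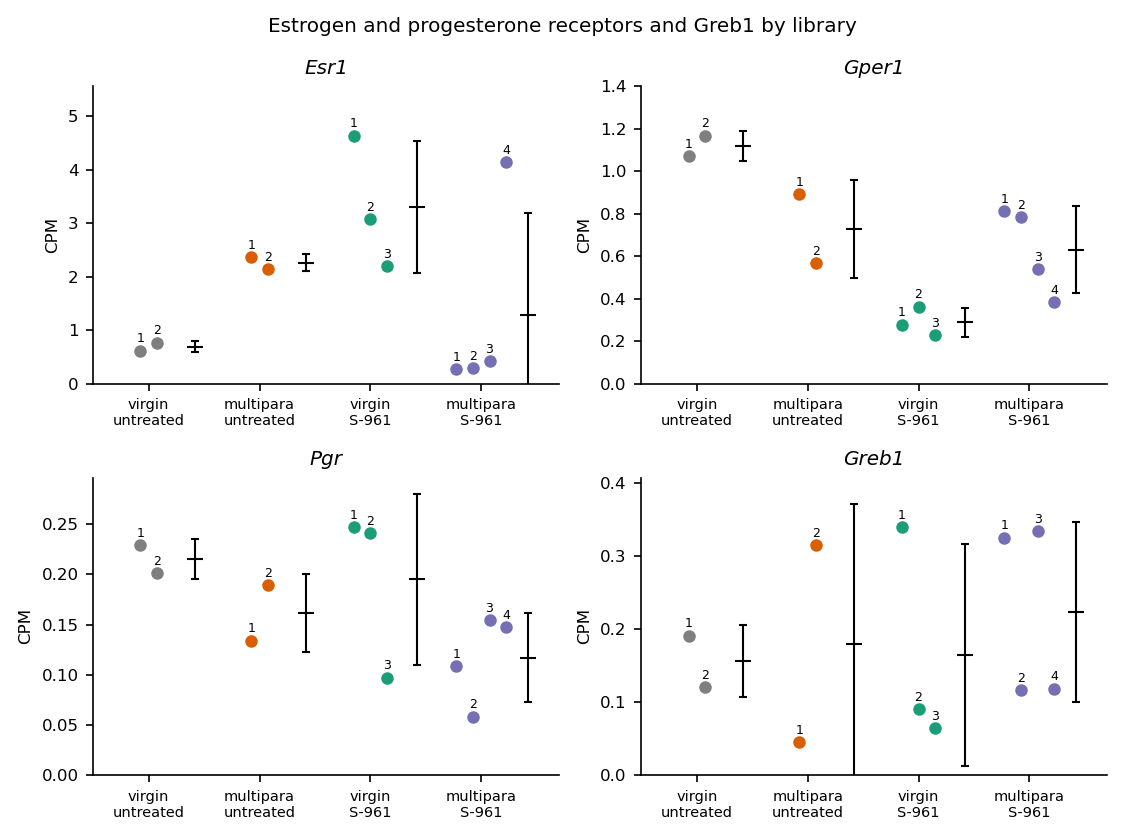
CPM of Esr1, Gper1, Pgr and Greb1 by library on linear axes from 0, with numbered points for replicates and bars for the mean and SD of each group (n = 2, 2, 3 and 4). SD bars that reach below 0 are cut at the axis. Multipara S-961 replicate 4 has 4.14 CPM of Esr1, within the 2.20 to 4.63 CPM of virgin S-961.

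Gper1, the G protein-coupled estrogen receptor, had low counts of 7 to 30 per library. Gper1 (chromosome 5, 139423151 to 139427800, plus strand) had 0.278, 0.362 and 0.226 CPM in virgin S-961 and 0.813, 0.785, 0.540 and 0.384 CPM in multipara S-961. It had 1.07 and 1.17 CPM in virgin untreated and 0.893 and 0.567 CPM in multipara untreated libraries. Virgin S-961 held the 3 lowest libraries and virgin untreated the 2 highest, with both multipara groups between and overlapping each other. In virgin, Gper1 was 3.83-fold lower with S-961 (log2 -1.94 ± 0.48, adjusted p = 0.00939, edgeR), a call lost without virgin untreated replicate 2 (adjusted p = 0.0665, range over alternatives 0.00487 to 0.0665). In multipara the value was -0.22 ± 0.45 (adjusted p = 0.724, edgeR). The call over both parity groups (-1.08 ± 0.41, adjusted p = 0.0458, edgeR) was lost on leaving out any of 8 of the 11 libraries, at adjusted p of 0.0543 to 0.130, and held without multipara S-961 replicate 1 or 2 or multipara untreated replicate 2 (range over alternatives 0.0198 to 0.194). Gper1 overlaps 3110082I17Rik on the opposite strand, which had up to 14.6 CPM. The kit keeps strand, but the strand setting of the counting is not given in the sources used here, so that Gper1 is uncertain.

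Between parity groups, Gper1 was higher in all multipara S-961 libraries than in all virgin S-961 ones (log2 1.13 ± 0.46, adjusted p = 0.479, edgeR) and lower in both untreated multipara libraries than in both virgin ones (-0.59 ± 0.39, adjusted p = 0.734, edgeR). The difference between these differences was 1.72 ± 0.67 (adjusted p = 0.720, edgeR interaction). Gper1 was 1 of 7 genes whose S-961 parity groups did not overlap, against 8.87% of all 16784 genes tested. The gap was narrow, between 0.384 CPM (13 counts) in multipara S-961 replicate 4 and 0.362 CPM (12 counts) in virgin S-961 replicate 2.

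No parity difference among these genes passed the threshold. With S-961, 0 of 7 passed by edgeR (background 0% of 16784 genes), 1 had an unadjusted p under 0.05 (background 9.71%), and DESeq2 called 0. Untreated, 0 of 6 passed by edgeR (background 0% of 15812 genes), 2 had an unadjusted p under 0.05 (background 5.62%), and DESeq2 called 0. In the interaction 0 of 7 passed by edgeR (background 0% of 17996 genes), 1 had an unadjusted p under 0.05 (background 6.55%), and DESeq2 called 0. Fkbp5 differed by log2 0.14 ± 0.24 between parity groups with S-961 (adjusted p = 0.875, edgeR) and by -0.31 ± 0.11 untreated (adjusted p = 0.719, edgeR), where both multipara libraries lay below both virgin ones. Untreated, 4 of 6 genes did not overlap (Esr1 higher, and Fkbp5, Gper1 and Nr3c2 lower), against 36% of all genes (17.3% higher and 18.8% lower). Nr3c1 differed by 0.039 ± 0.17 with S-961 and 0.020 ± 0.078 untreated, and Tsc22d3 by 0.14 ± 0.29 and 0.0076 ± 0.15 on the log2 scale.

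Of 24 further genes known to respond to glucocorticoids, all tested, 5 were higher and 10 lower with S-961 over both parity groups by edgeR. Their median log2 fold change was -0.42, against -0.017 over all genes tested. The background was 25.7% higher and 25.9% lower. The metallothioneins Mt1 and Mt2, which bind metal ions, fell the most. Mt2 had 25.5, 39.1 and 39.4 CPM in virgin S-961 and 21.4, 24.6, 27.8 and 34.6 CPM in multipara S-961, against 358 and 506 CPM in virgin untreated and 520 and 780 CPM in multipara untreated libraries. No S-961 library came near the untreated ones. The fall was 17.8-fold for Mt2 (log2 -4.16 ± 0.23, adjusted p = 9.87e-07, edgeR) and 15.9-fold for Mt1 (-3.99 ± 0.24, adjusted p = 1.06e-06, edgeR). Fam107a, an actin-binding stress response gene, had 1.92, 1.93 and 2.17 CPM in virgin S-961 and 2.68, 2.27, 4.25 and 1.83 CPM in multipara S-961, against 18.5 and 27.1 CPM in virgin untreated and 8.44 and 12.6 CPM in multipara untreated libraries. It fell 6.60-fold (-2.72 ± 0.33, adjusted p = 4.04e-05, edgeR) without overlap. Lcn2, a siderophore-binding protein of innate immunity, also passed (-3.02 ± 1.07, adjusted p = 0.0336, edgeR), but its untreated libraries ran from 0.189 to 9.94 CPM and overlapped those with S-961.

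The targets that rose included Dusp1, a phosphatase of MAP kinases, with 220, 220 and 197 CPM in virgin S-961 and 245, 302, 312 and 157 CPM in multipara S-961. Untreated libraries had 110 and 88.7 CPM in virgin and 85.1 and 65.0 CPM in multipara. It rose 2.70-fold without overlap (log2 1.43 ± 0.21, adjusted p = 0.000158, edgeR). The clock gene Per1 rose by 0.98 ± 0.14 (adjusted p = 0.000138, edgeR), the kinase gene Sgk1 by 0.68 ± 0.15 (adjusted p = 0.00318, edgeR) and the small G protein gene Rasd1 by 0.50 ± 0.16 (adjusted p = 0.0183, edgeR). Rasd1 overlapped narrowly, with 51.1 CPM or more with S-961 and up to 51.9 CPM without it. Dusp1, Per1 and Sgk1 are also known to respond to other stimuli than glucocorticoids. In virgin 2 of the 24 genes were higher and 8 lower (background 18.8% and 17.6%, median -0.71, all genes -0.036), and in multipara 7 were higher and 7 lower (background 18.2% and 19.4%, median -0.21, all genes 0.031). The zinc finger gene Zbtb16 fell in both, by -2.83 ± 0.50 in virgin (adjusted p = 0.00183, edgeR) and -1.94 ± 0.46 in multipara (adjusted p = 0.00788, edgeR). The counts of higher genes shrank to 1 in virgin without either virgin untreated library, and to 4 in multipara and 3 over both parity groups without either multipara untreated library.

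**Figure D4:**
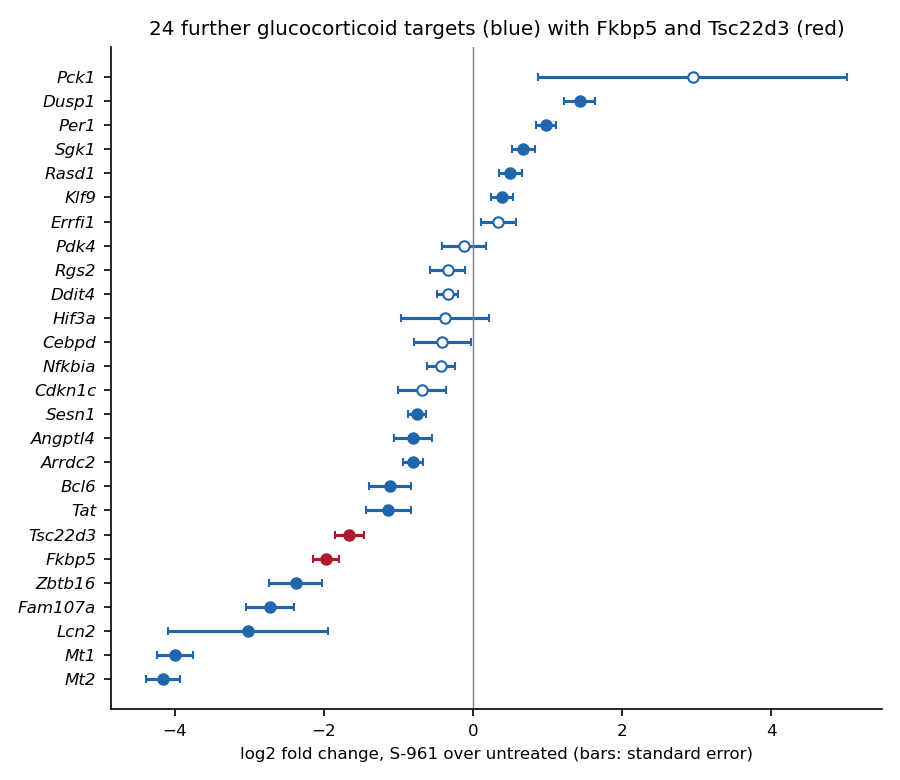
Log2 fold change of S-961 over untreated libraries across both parity groups for 24 further glucocorticoid targets (blue) and for Fkbp5 and Tsc22d3 (red), with bars for the standard error and filled points for an adjusted p under 0.05 by edgeR. Mt2 (-4.16) and Mt1 (-3.99) lie lowest, and Dusp1 (1.43) is the highest of the filled points.

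Genes for chaperones that hold and fold steroid receptors were listed as well. Of 11, 5 were lower and 1 higher with S-961 over both parity groups (background 25.7% higher and 25.9% lower, median log2 -0.28, all genes -0.017). The BAG domain cochaperone Bag1 had 60.3, 63.1 and 79.8 CPM in virgin S-961 and 57.6, 73.1, 46.1 and 58.0 CPM in multipara S-961, against 111, 120, 118 and 125 CPM in the 4 untreated libraries. It fell 1.89-fold without overlap (-0.92 ± 0.13, adjusted p = 9.73e-05, edgeR). The HSP90 gene Hsp90ab1 fell by log2 -0.65 ± 0.10 (adjusted p = 0.000310, edgeR), its cochaperone Cdc37 by -0.68 ± 0.13 (adjusted p = 0.000904, edgeR) and Fkbp4, the immunophilin that competes with the product of Fkbp5 in receptor complexes, by -0.48 ± 0.13 (adjusted p = 0.00817, edgeR). Ppid, another immunophilin gene, was the 1 that rose (0.43 ± 0.13, adjusted p = 0.0145, edgeR), a call lost without virgin untreated replicate 1. Its S-961 libraries, at 31.7 to 57.2 CPM, overlapped the untreated ones at 33.1 to 35.8 CPM.

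Of 12 coregulators, 6 were higher and 0 lower by edgeR with S-961 over both parity groups (background 25.7% higher and 25.9% lower, median 0.42, all genes -0.017). The receptor coactivator Ncoa2 had 63.5, 67.3 and 39.4 CPM in virgin S-961 and 62.2, 40.5, 75.8 and 58.8 CPM in multipara S-961, and 28.4 to 30.6 CPM in the 4 untreated libraries. It rose 1.97-fold (0.98 ± 0.18, adjusted p = 0.000756, edgeR). The histone methyltransferase gene Kmt2d (1.05 ± 0.21, adjusted p = 0.00138, edgeR) and the acetyltransferase gene Ep300 (0.98 ± 0.21, adjusted p = 0.00222, edgeR) rose as well.

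Of the 11 other steroid receptor genes listed, 9 were tested, and 1 was higher and 4 were lower with S-961 over both parity groups (background 25.7% higher and 25.9% lower, median -0.46, all genes -0.017). Esrrg, an orphan receptor related to the estrogen receptors, rose 2.44-fold (log2 1.29 ± 0.21, adjusted p = 0.000390, edgeR). The membrane progestin receptor genes Paqr7 (-0.88 ± 0.19, adjusted p = 0.00214, edgeR) and Paqr8 (-0.85 ± 0.29, adjusted p = 0.0268, edgeR) fell. So did the progesterone-binding membrane components Pgrmc1 (-0.60 ± 0.089, adjusted p = 0.000174, edgeR) and Pgrmc2 (-0.39 ± 0.089, adjusted p = 0.00343, edgeR). Paqr8 ran from 2.07 to 6.07 CPM with S-961, which overlapped the 4.02 to 6.43 CPM without it. Pgrmc1 was far more abundant than Pgr, with 102 to 133 CPM with S-961 and 160 to 187 CPM without it.

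Of 20 genes known as estrogen or progesterone targets, 19 were tested, and 4 were higher and 4 lower with S-961 over both parity groups, near the background in each direction (background 25.7% higher and 25.9% lower, median -0.38, all genes -0.017). The growth gene Myc had 45.5, 39.2 and 39.97 CPM in virgin S-961 and 35.7, 36.4, 30.1 and 36.2 CPM in multipara S-961, against 6.54, 5.04, 12.2 and 4.41 CPM in the 4 untreated libraries. It rose 5.30-fold (2.41 ± 0.26, adjusted p = 1.83e-05, edgeR). The cadherin gene Celsr2 (1.16 ± 0.13, adjusted p = 2.46e-05, edgeR), the cyclin gene Ccnd1 (0.98 ± 0.16, adjusted p = 0.000404, edgeR) and the receptor corepressor gene Nrip1 (0.81 ± 0.17, adjusted p = 0.00180, edgeR) rose too. The signalling ligand gene Wnt4 fell 4.75-fold (-2.25 ± 0.26, adjusted p = 2.92e-05, edgeR), with 61.5 to 181 CPM with S-961 and 374 to 448 CPM without it. Rara, a retinoic acid receptor gene, fell by -0.82 ± 0.13 (adjusted p = 0.000327, edgeR) and the lysosomal protease gene Ctsd by -0.65 ± 0.096 (adjusted p = 0.000178, edgeR), and the iron-binding Ltf was the other one called, at 0 to 14.6 CPM in untreated libraries that overlapped those with S-961.

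Of 21 enzymes of steroid metabolism, 13 were tested, and 3 were higher and 3 lower with S-961 over both parity groups, again near the background (background 25.7% higher and 25.9% lower, median -0.15, all genes -0.017). Hsd17b7 (1.26 ± 0.21, adjusted p = 0.000362, edgeR) and Hsd17b12 (1.23 ± 0.30, adjusted p = 0.00497, edgeR), hydroxysteroid dehydrogenases that also serve sterol and fatty acid synthesis, rose, as did the aldo-keto reductase gene Akr1c14 (1.01 ± 0.14, adjusted p = 9.4e-05, edgeR). The lowest multipara S-961 library had 44.1 CPM of Hsd17b12, below the 55.3 to 73.9 CPM of the untreated libraries. The mitochondrial dehydrogenase gene Hsd17b10 fell by -1.13 ± 0.14 (adjusted p = 5.16e-05, edgeR), the ferredoxin reductase gene Fdxr by -0.46 ± 0.11 (adjusted p = 0.00482, edgeR) and the reductase gene Srd5a3 by -0.39 ± 0.073 (adjusted p = 0.000911, edgeR).

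None of these 6 lists held a gene past the threshold between parity groups. With S-961, 0 of 85 genes passed by edgeR, 8 had an unadjusted p under 0.05 (background 9.71%), and DESeq2 called 3 (369 of all genes). Untreated, 0 of 83 passed by edgeR, 11 had an unadjusted p under 0.05 (background 5.62%), and DESeq2 called 4 (56 of all genes). In the interaction 0 of 88 passed by edgeR, 7 had an unadjusted p under 0.05 (background 6.55%), and DESeq2 called 1 (81 of all genes). Of the 24 glucocorticoid targets, 18 had a log2 value above 0 in multipara against virgin with S-961 (median 0.25, all genes 0.0036), and 17 of the 23 tested had one below 0 untreated (median -0.33, all genes 0.017). Markers of other cells moved too. All 6 alpha cell markers lay above 0 with S-961 (median 0.50) and below 0 untreated (median -0.62), and all 10 stromal markers lay above 0 with S-961 (median 1.36), and their part in the list's values was not tested. Of the targets, 4 were called lower without multipara untreated replicate 1, where 53 of all genes were called, and 6 without replicate 2, where 1735 were, and in both fits the lone multipara library is assumed to vary as the virgin ones do. Examples whose groups did not overlap were Angptl4, an inhibitor of lipoprotein lipase (0.87 ± 0.31, adjusted p = 0.394, edgeR), and Nfkbia, an inhibitor of NF-kappaB (0.68 ± 0.23, adjusted p = 0.375, edgeR), with S-961. Untreated, they were Fam107a (-1.12 ± 0.28, adjusted p = 0.719, edgeR) and the kinase gene Pdk4 (-1.09 ± 0.13, adjusted p = 0.719, edgeR), of 11 targets lower without overlap. The other way, 2 targets were higher without overlap, Mt1 and Mt2. Mt1 had 940.3 to 1360 CPM in multipara against 675 to 940.1 CPM in virgin libraries, and Mt2 520 to 780 against 358 to 506 CPM.

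Among the genes whose profile over the 11 libraries came closest to that of Esr1, of 12594 genes compared, were Rerg and Nmnat2. The measure was the root mean square difference of log2 CPM, each gene centred on its own mean, and was 0.62 for Rerg and 0.75 for Nmnat2, where Esr1 itself spread by 1.37. Rerg encodes a small GTPase named for its regulation by estrogen and growth inhibition, and Nmnat2 encodes an enzyme of NAD synthesis. Rerg had 20.1, 13.5 and 12.8 CPM in virgin S-961, 1.87, 1.80, 2.44 and 15.7 CPM in multipara S-961, 1.30 and 2.66 CPM in virgin untreated and 5.001 and 3.53 CPM in multipara untreated libraries. As with Esr1, the library labelled multipara S-961 replicate 4 lay with the virgin S-961 libraries, and the direction between parity groups rests on the labels in the same way. For Nr3c1 the closest genes were the kinase genes Gsk3b (0.043) and Rock1 (0.069) and the phospholipid flippase gene Atp11b (0.056), against a spread of 0.38. For Fkbp5 they were Upp1 (0.17), 2810001G20Rik (0.18) and Dpysl2 (0.18), against 0.995, and for Tsc22d3 Shisal2b (0.13), Cabp7 (0.18) and Ffar3 (0.18), against 0.87. For Nr3c2 they were the receptor coactivator gene Ncoa1 (0.11), Hs6st1 (0.12) and Dop1b (0.12), against 0.30. For Gper1 they were Apof (0.24), Trp53i11 (0.27) and Hr (0.27), against 0.67, and for Greb1 Gm20554 (0.35), Pcdhgb7 (0.45) and Airn (0.46), against 0.66. These values describe likeness over the same libraries and carry no test.

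**Figure D5:**
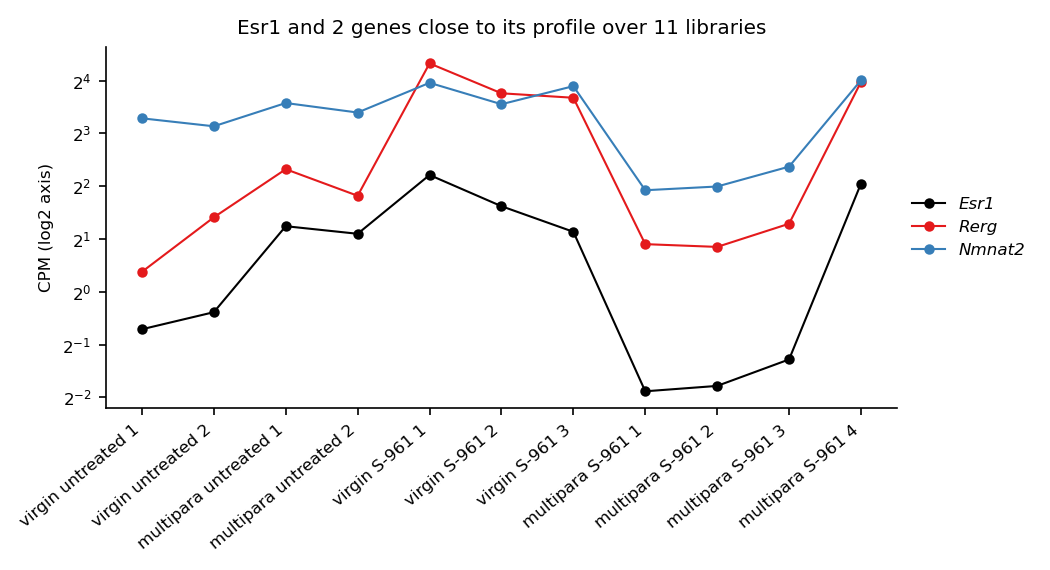
CPM on a log2 axis of Esr1, Rerg and Nmnat2 in each of the 11 libraries, with lines joining the libraries of a gene for reading only. All 3 genes are low in multipara S-961 replicates 1 to 3 and high in replicate 4, where Esr1 has 4.14 and Rerg 15.7 CPM.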

How the data were processed

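RNA of islets was measured by poly(A)-selected, stranded bulk RNA-seq (Illumina TruSeq Stranded mRNA) in 11 libraries, grouped by their titles into virgin and multipara with or without S-961. For every library the authors deposited a table of each gene's estimated counts, which are expected counts from their read assignment and were not normalized. The submitters' processing notes name STAR, RSEM and the build GRCm38 (mm10), and no versions. All 55536 identifiers and symbols matched GENCODE M21, from which coordinates and exon lengths were taken.

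The estimated counts were rounded to whole numbers, scaled by TMM, filtered with filterByExpr (minimum count 10, minimum total count 15) and tested over all genes by the quasi-likelihood F-test of edgeR 4.0.16 in R 4.3.3 with Benjamini-Hochberg adjustment and a threshold of 0.05. The parity comparisons used the libraries of 1 treatment each. The S-961 comparisons and the interaction used all 11 libraries, in a group model or, over both parity groups, with parity as a term. CPM values used TMM factors of all 11 libraries. SE was the log2 fold change divided by the square root of F. The alternatives were DESeq2 1.42.0, its size factors in edgeR, library sizes without Ins1 and Ins2, no filter, a stricter filter of 1 CPM, other libraries in the fit, a replicate block and each library left out. The steps were tested on simulated data.

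The 9 genes and the lists were chosen with earlier results of these data known, so that no count over them is independent evidence. The lists hold other steroid receptors, glucocorticoid targets, estrogen and progesterone targets, receptor chaperones, coregulators and steroid enzymes, 99 genes in all. Named from each list were up to 4 genes per comparison and direction with the largest log2 fold change among those past the threshold or, where none passed, up to 2 per direction whose mean log2 CPM was 1 or more and whose groups did not overlap. The genes closest to a profile were the 3 with the smallest root mean square difference among genes of that level. Those of the comparison over both parity groups are given, and those of the others as examples. Of the genes these rules give, 2 are not reported here. The estimated counts of Nr3c2 were not whole in 1 library. Counting error alone limits genes with few counts.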

Additional observations from a re-analysis of the deposited data

Results flagged for a closer look

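A group of 4 libraries allows a check of its highest and lowest value against the gap to the nearest other one, which chance passes in about 1 in 20 groups. Of 8 genes checked in multipara S-961, 2 passed it. Esr1 had 4.14 CPM in replicate 4, where the other 3 libraries had 0.271 to 0.412 CPM. Tsc22d3 had 27.0 CPM in replicate 3, where the others had 13.3 to 15.2 CPM. Replicate 3 also had the highest Fkbp5 of its group at 80.4 CPM, and the fall of both genes with S-961 passed the threshold without it.

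The parity difference of Gper1 ran in opposite directions by treatment, with no overlap of libraries in either, at log2 1.13 with S-961 and -0.59 untreated. The test of the difference between them gave an adjusted p of 0.720 by edgeR's interaction contrast. With S-961 the gap lay only between 0.384 CPM in multipara replicate 4 and 0.362 CPM in virgin replicate 2. Untreated, 36% of all genes tested had no overlap.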

How the results depend on the processing

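Over all alternatives the fall of Fkbp5 and Tsc22d3 with S-961 kept its direction and passed the threshold in virgin, in multipara and over both parity groups, and so did the rise of Nr3c1 over both. Between parity groups with S-961 the number of the 9 genes called was 0 to 1 on leaving out a library, and 1 with the replicate block, the gene being Esr1 in each case. Untreated it was 0 to 1, and in the interaction 0 to 1 on leaving out a library and 1 with the replicate block. With S-961 in virgin it was 2 to 4 on leaving out a library, the 2 being Fkbp5 and Tsc22d3 without virgin untreated replicate 2, and 3 to 5 under the other alternatives, the 5 including Esr1. Replicate 4 exists only in multipara S-961, so that the replicate block removes that library from the contrast. Same-numbered S-961 libraries correlated at 0.056, 0.012 and 0.093. Same-numbered untreated libraries correlated at 0.280, but in groups of 2 libraries the other pairing gives -0.280 by construction. Which libraries came from littermates is not given in the sources used here, and the numbers were not taken as pairs. The block gave Esr1 adjusted p of 0.0179 between parity groups with S-961, 0.0387 in the interaction, 0.00760 for S-961 in virgin and 0.00538 in multipara, and Nr3c1 0.0523 in multipara and Gper1 0.194 over both parity groups. Without a filter on low counts Gper1 over both parity groups had 0.0889.

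Values near 0 changed sign. With the block, Gper1 with S-961 in multipara was 0.11, Esr1 over both parity groups -0.41 and Nr3c1 in the interaction -0.036, which was also -0.026 by DESeq2 and by its size factors. Tsc22d3 between untreated parity groups was -0.0066 without a filter and -0.0017 with all 11 libraries in the fit. On leaving out a library, values between parity groups with S-961 ran from -0.067 to 0.15 for Nr3c1, -0.11 to 0.25 for Fkbp5 and -0.16 to 0.37 for Tsc22d3, and untreated from -0.043 to 0.076 for Nr3c1 and -0.18 to 0.15 for Tsc22d3. With S-961 in virgin they ran from -0.29 to 0.035 for Nr3c2 and -0.97 to 0.45 for Greb1, in multipara from -0.49 to 0.15 for Gper1 and -0.48 to 2.24 for Greb1, and over both from -0.62 to 0.80 for Esr1 and -0.17 to 0.70 for Greb1. In the interaction they ran from -0.093 to 0.12 for Nr3c1, -0.16 to 0.35 for Tsc22d3 and -0.56 to 2.16 for Greb1. The cause of these changes was not tested.

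Over all genes, edgeR called 0 between parity groups with S-961, where DESeq2 called 369, the block 342 and fits without a library 0 to 525. Untreated edgeR called 0, DESeq2 56 and fits without a library 0 to 1735. In the interaction edgeR called 0, DESeq2 81, the block 34 and fits without a library 0 to 45. With S-961 in virgin edgeR called 6562, and 3053 to 6121 without a library. In multipara it called 6768, and 4428 in a fit of the multipara libraries alone. In a fit of the virgin libraries alone the glucocorticoid targets called lower rose from 8 to 14, and the genes called among all genes from 6562 to 8500. Greb1 and Gper1 had no value under the stricter filter.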
